A study of Arabidopsis thaliana with 4 samples.

Results

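The tau-class glutathione transferases (GSTU genes) were described in root tips of wild type and sol2 mutant Arabidopsis thaliana. Genes were taken as members where a probe set paired with 1 gene carried a GSTU symbol and its mean log2(signal + 18.4) over the 4 arrays lay at or above the 40th percentile of the 22746 probe sets that were not controls. These were 7 probe sets of the 22810 on the array, for GSTU16, GSTU20, GSTU22, GSTU25, GSTU26, GSTU27 and GSTU28. Within the family the members were thus chosen by their mean signal over all 4 arrays, which is given only as a description. That rule did not use the difference between genotypes, but the family was chosen with earlier results of these data known. Of 28 tau-class loci, 4 more had a single-gene probe set that lay below that level, and 17 had no single-gene probe set in the tables used and were not analysed here.

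Seedlings of both genotypes were grown on MS medium at 23 °C in continuous light for 4 days, and root tip RNA was hybridised to 2 arrays per genotype. The sol2 plants carry a mutation in SOL2 (CORYNE), a membrane-bound kinase-like protein through which CLE peptides signal, and the series asks how it affects expression at the root apex. The allele, the ecotype, the number of seedlings per array and whether the replicates were grown separately are not given in the sources used here, and the p-values below therefore rest on a spread between arrays that may be technical.

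Glutathione transferases join the tripeptide glutathione to electrophilic compounds. The tau class is found in plants, where it is known for detoxifying herbicides and other xenobiotics, and many of its genes are induced by such compounds and by oxylipins through TGA transcription factors. The conjugates are carried into the vacuole by transporters of the ABCC type. Many tau-class genes lie side by side on the chromosome as tandem copies.

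In no member did sol2 and wild type root tips differ by as much as 2-fold in mean signal. None of the 7 members was called (limma, adjusted p under 0.05), beside 1.25% of the 13648 tested probe sets (0.945% higher and 0.3% lower in sol2). GSTU27 had the largest difference, 1.47-fold lower in sol2, and was the only 1 of the 7 members with an unadjusted p under 0.05, which 8.9% of all tested probe sets had. On both sol2 arrays GSTU22 was below and GSTU25 above both wild type arrays, with means 1.24-fold and 1.15-fold apart, and neither passed the test. GSTU16, GSTU20, GSTU26 and GSTU28 differed between the genotype means by 1.17-fold or less. Of these only GSTU28 had both sol2 arrays on the same side of both wild type arrays, below them and narrowly. Signals of different probe sets are not comparable as transcript levels, so the level of 1 gene is not read against that of another. Ratios of neighbouring genes within an array are given below only to compare the genotypes.

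**Figure D1:**
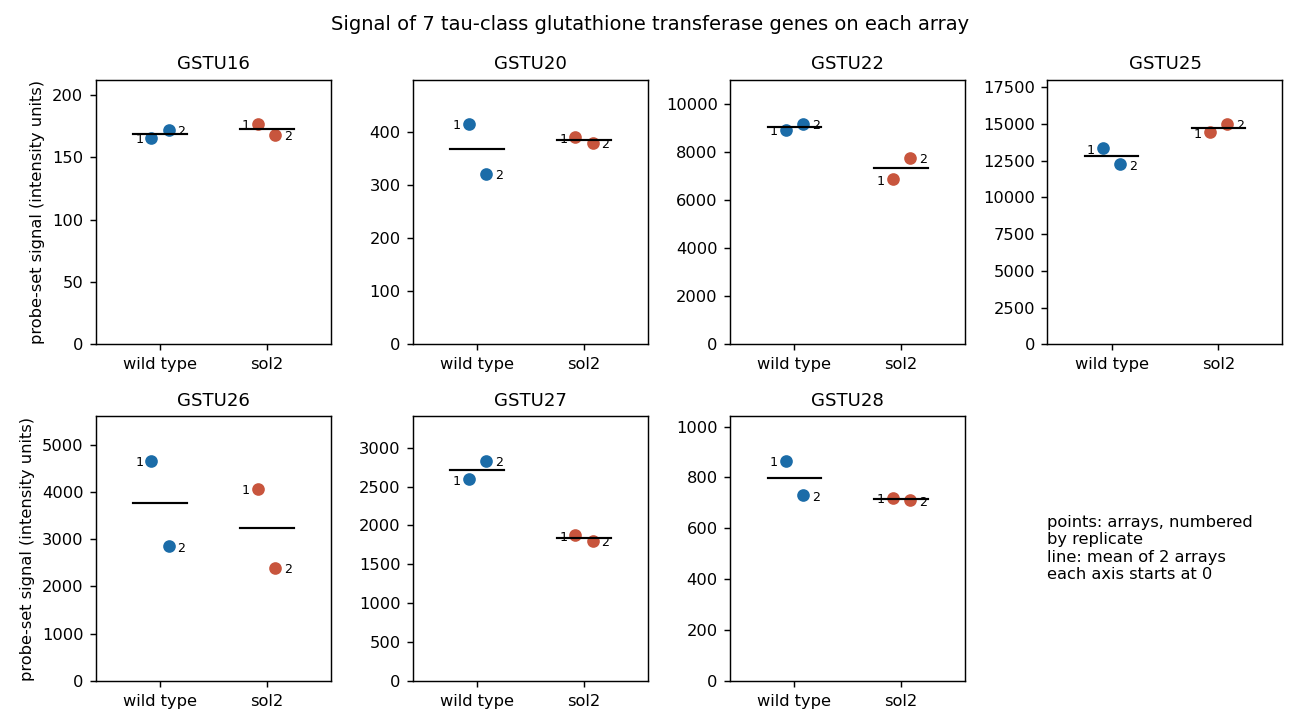
Probe-set signal (intensity units, axes from 0) of each of the 7 members on the 2 wild type and 2 sol2 arrays, with points numbered by replicate and a line at the mean of each genotype. GSTU22, GSTU27 and, narrowly, GSTU28 lie lower and GSTU25 higher on both sol2 arrays, while for GSTU26 replicate 1 lies above replicate 2 in both genotypes.

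GSTU27 (AT3G43800, probe set 252712_at) was the member on chromosome 3, and the other 6 lay on chromosome 1. Wild type gave signals of 2595.3 and 2834.6, and sol2 1872.3 and 1801.6. Both sol2 arrays thus lay below both wild type arrays, and the spread within each genotype was small beside the gap between them. The means were 2715 ± 169 in wild type and 1837 ± 50.0 in sol2 (SD, n = 2), a log2 difference of -0.56 ± 0.16 (SE, 95% interval -0.94 to -0.18) with an adjusted p of 0.242 (limma). Pairing each sol2 array with each wild type array, 4 pairs in all, gave log2 differences from -0.65 to -0.47. The log2 difference was lower than that of 96.5% of all tested probe sets, yet the smallest change called anywhere on the arrays had a size of 0.86 on this scale.

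GSTU25 and GSTU26 are neighbours on chromosome 1, with no protein-coding gene between them in RefSeq's TAIR10.1 gene table. GSTU25 (AT1G17180, probe set 262517_at) encodes an enzyme known to conjugate the explosive TNT. Its signal was 13337.5 and 12260.9 in wild type against 14441.7 and 15016.5 in sol2. Both sol2 arrays were above both wild type arrays, with a log2 difference of 0.20 ± 0.12 (95% interval -0.08 to 0.49, adjusted p = 0.788, limma).

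GSTU26 (AT1G17190, probe set 262516_at) is known to be induced by chloroacetanilide herbicides. Its signal was 4663.8 and 2848.4 on wild type replicates 1 and 2 and 4066.9 and 2389.6 on sol2 replicates 1 and 2. The genotypes overlapped, since replicate 1 was above replicate 2 in both, by 0.71 log2 in wild type and 0.76 log2 in sol2. Among all tested probe sets the median size of the difference was 0.29 log2 between the wild type arrays and 0.18 log2 between the sol2 arrays. The genotype difference of GSTU26 was -0.22 ± 0.30 (95% interval -0.92 to 0.48, adjusted p = 0.949, limma), the widest interval among the members. It turned positive, to 0.13 and 0.16, when wild type replicate 1 or sol2 replicate 2 was left out, and was -0.58 and -0.61 without wild type replicate 2 or sol2 replicate 1. The 3' to 5' signal ratio of the actin control, a measure of RNA integrity and labelling, was also split by replicate, at 8.45 and 11.6 on replicate 1 and 24.5 and 36.9 on replicate 2 of wild type and sol2, while that of GAPDH lay between 0.971 and 1.07 on the 4 arrays. The ubiquitin ratio was apart by genotype instead, at 3.02 and 3.87 on the wild type arrays against 2.46 and 2.29 for sol2. The part of these ratios in the GSTU26 values, and in the genotype differences of the other members, was not tested.

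The log2 ratio of GSTU25 to GSTU26 within an array was 1.51 and 2.099 in wild type against 1.82 and 2.64 in sol2. These ranges overlapped, with a mean difference of 0.43 between the genotypes. An exact permutation test of 2 arrays against 2 gave a p of 0.667. Such a test cannot go below 0.333, so it cannot decide whether the neighbours changed unequally.

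GSTU20, GSTU21, GSTU22 and GSTU23 form a run of adjacent genes on chromosome 1, of which GSTU20 and GSTU22 are members. GSTU22 (AT1G78340, probe set 260803_at) had signals of 8946.5 and 9184.1 in wild type against 6874.4 and 7773.9 in sol2. Both sol2 arrays were below both wild type arrays. The log2 difference was -0.31 ± 0.14, and its 95% interval, -0.63 to 0.01, reached 0 (adjusted p = 0.580, limma).

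GSTU20 (AT1G78370, probe set 260745_at), also known as an interaction partner of the jasmonate-conjugating enzyme FIN219/JAR1, had signals of 416.3 and 321.4 in wild type against 391.2 and 380.9 in sol2. The sol2 values lay between the 2 wild type values. The log2 difference was 0.07 ± 0.22 (95% interval -0.44 to 0.58, adjusted p = 0.983, limma). Leaving out wild type replicate 2 gave -0.10, and leaving out wild type replicate 1 gave 0.25. The log2 ratio of GSTU20 to GSTU22 within an array was -4.37 and -4.76 in wild type against -4.07 and -4.29 in sol2. Both sol2 arrays were above both wild type arrays by 0.08 to 0.69 log2. The exact permutation test gave a p of 0.333, the lowest it can reach, so it cannot decide here either.

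GSTU16 (AT1G59700, probe set 262916_at) lay within a narrow range on all arrays, at 165.7 and 171.9 in wild type against 176.9 and 168.3 in sol2. The genotypes overlapped, and the log2 difference was 0.03 ± 0.22 (95% interval -0.49 to 0.54, adjusted p = 0.991, limma). It turned to -0.0092 with quantile normalization.

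GSTU28 (AT1G53680, probe set 259964_at) had signals of 866.8 and 730 in wild type against 720.8 and 710.9 in sol2. Both sol2 arrays were below both wild type arrays, but the gap to the lower wild type array was 0.02 log2 and that between the wild type arrays 0.24 log2. The log2 difference was -0.15 ± 0.20 (95% interval -0.60 to 0.30, adjusted p = 0.945, limma). Without wild type replicate 1 it was -0.03, and -0.27 when wild type replicate 2 was left out.

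**Figure D2:**
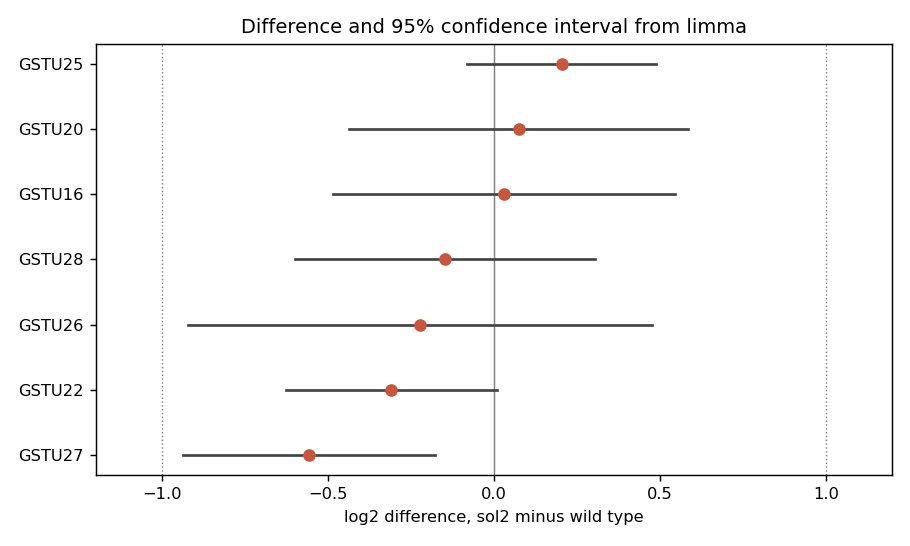
Log2 difference of each member (sol2 minus wild type, points) with its 95% confidence interval from limma (bars), on 2 arrays per genotype. Dotted lines mark a 2-fold change, and all 7 intervals lie inside them.

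The 95% intervals rest on the spread between these arrays and cover no other source of variation. In limma the spread of each gene is drawn toward that of tested probe sets at like signal. The bounds are thus not those of a gene's own arrays alone, as for GSTU26, whose replicates lay 0.71 and 0.76 log2 apart. All 7 lay inside a 2-fold change in either direction, and the outermost bound, that of GSTU27, was 1.91-fold. Only the interval of GSTU27 excluded 0, before any adjustment for the number of probe sets tested. None of the 7 differed at least 2-fold in every pair of arrays, which 1.31% of all tested probe sets did.

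As a group the members had 4 lower and 3 higher mean log2 values in sol2, beside 49.3% of all tested probe sets that were lower. The genotypes did not overlap for 4 of the 7, GSTU22, GSTU27 and GSTU28 on the lower side and GSTU25 on the higher. Over all tested probe sets the genotypes did not overlap for 36.2%, 18.6% lower and 17.5% higher. The median log2 difference was -0.15 over the members and 0.004 over all tested probe sets, and the median size of the difference was 0.20 and 0.17. The median of the members rested on single arrays. It was 0.0049 without wild type replicate 1, 0.061 without sol2 replicate 2 and -0.27 without wild type replicate 2.

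**Figure D3:**
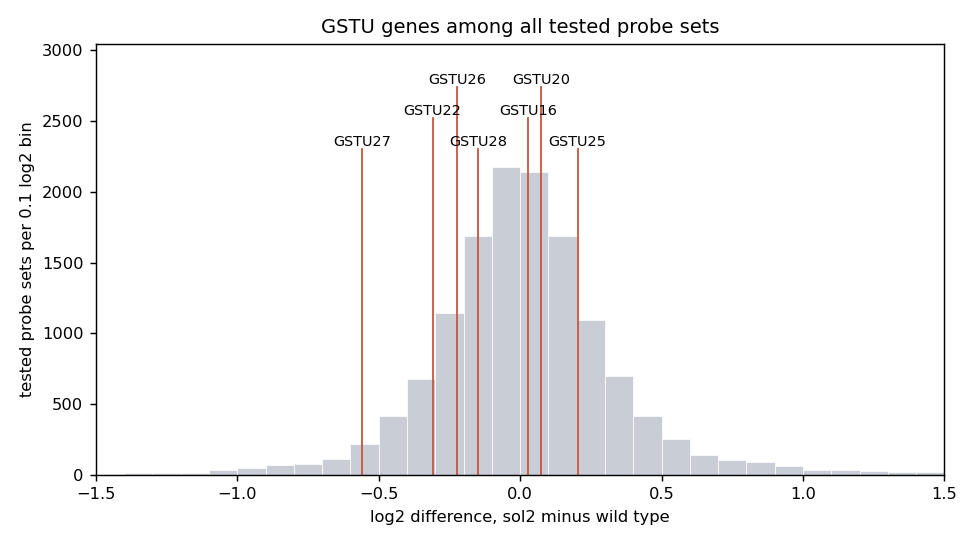
Number of tested probe sets per 0.1 bin of the log2 difference (sol2 minus wild type), with lines at the 7 members and 134 probe sets beyond 1.5 in size left out of the drawing. The members lie between -0.56 and 0.20, around the centre of the distribution, with GSTU27 toward its lower side.

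With each array left out in turn, GSTU27 was between -0.62 and -0.49, GSTU22 between -0.40 and -0.22 and GSTU25 between 0.14 and 0.26. GSTU22, GSTU25, GSTU27 and GSTU28 kept their direction in all 4 cases. This adds nothing to the lack of overlap given above, since without overlap no single array can reverse the sign. GSTU16, GSTU20 and GSTU26 changed sign in at least 1 case. No member was called in any of these cases. A genotype left with 1 array was taken to have the spread of the other one.

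**Figure D4:**
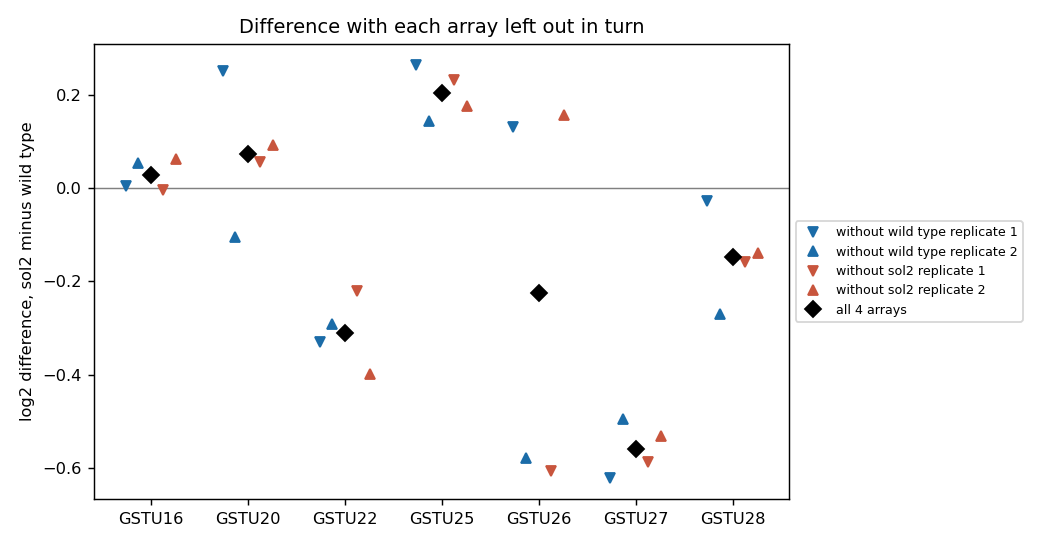
Log2 difference of each member (sol2 minus wild type) with all 4 arrays (diamonds) and with each array left out (triangles, blue for wild type and red for sol2 arrays). GSTU27 stays between -0.62 and -0.49, while GSTU26 runs from -0.61 to 0.16.

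The filter on level, equal to a signal of about 80.1, fell between GSTU16 with a mean log2 value of 7.56 and GSTU23 with 6.61. All 7 members were above it on every array, so none was a member because of 1 genotype alone. Of the 4 GSTU genes below it, GSTU23 (AT1G78320) had signals of 67.3 and 61.2 in wild type against 94.4 and 100.7 in sol2, so that it would have passed on its sol2 arrays but not on its wild type arrays. GSTU18 (AT1G10360) had 109.9 and 67 in wild type against 35.6 and 47.3 in sol2. The genotypes did not overlap for these genes, whose log2 differences were 0.49 for GSTU23 and -0.81 for GSTU18, given here without a test. GSTU21 (AT1G78360) had 65.2 and 43.8 in wild type against 47.8 and 73.4 in sol2, and these overlapped. GSTU15 (AT1G59670) was at or under 30.3 on every array, within the range of the control probe sets for bacterial transcripts, whose highest signal was 34.1.

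The wider glutathione pathway was thinly measured. Of 90 genes on lists of other glutathione transferase classes, glutathione synthesis and recycling, glutathione peroxidases, ABCC transporters and the xenobiotic and oxylipin response, 10 had a single-gene probe set, and 9 probe sets of these genes were tested. None was called in either direction, beside 1.25% of all tested probe sets. Only 1 of the 9, that of AER, had an unadjusted p under 0.05 (limma), which 8.9% of all tested probe sets had. No ABCC transporter or glutathione peroxidase was among them.

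Of the other transferase classes the lambda-class gene GSTL3 was tested, with signals of 186.3 and 142.8 in wild type against 225.7 and 236.8 in sol2 (log2 difference 0.46 ± 0.24, adjusted p = 0.694, limma). Both sol2 arrays were above both wild type arrays. The phi-class genes GSTF4 and GSTF13 lay below the filter. Glutathione reductase regenerates reduced glutathione, and its genes GR1 and GR gave log2 differences of -0.05 and 0.08 (adjusted p = 0.980 and 0.978, limma). GR1 had signals between 6932.3 and 7731.4 on all 4 arrays, and the genotypes overlapped for both genes.

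Among the response genes AER, for an NADPH-dependent alkenal reductase that reduces reactive carbonyls, had signals of 419.5 and 364 in wild type against 192.8 and 251.5 in sol2. Both sol2 arrays were lower, with a log2 difference of -0.78 ± 0.23 (adjusted p = 0.253, limma). The UDP-glycosyltransferase gene UGT73B1 had 920.6 and 564.7 in wild type against 593 and 482 in sol2, which overlapped (log2 difference -0.42 ± 0.27, adjusted p = 0.816, limma). UGT73B4 and UGT73B5 gave log2 differences of -0.05 and -0.14, and the genotypes overlapped for both. The probe sets named NQR, for the loci AT3G27890 and AT1G49670, gave 0.23 and 0.09 (adjusted p = 0.939 and 0.969, limma). The genotypes overlapped for the first and not for the second. The median over the 6 tested probe sets of this list was -0.09.

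Other cell types could be followed only in part, since 7 of 35 marker genes had a single-gene probe set. The root hair genes EXPA7 and EXPA18 together gave 3330 and 2950 in wild type against 2833 and 2376 in sol2. The genotypes overlapped for EXPA7 (log2 difference -0.14, adjusted p = 0.964, limma) and not for EXPA18 (log2 difference -0.37, adjusted p = 0.624, limma), and neither was called. The photosynthetic genes RCA and PSBW summed to between 365.4 and 383.2 in wild type and between 242.1 and 254.9 in sol2. RCA was lower on both sol2 arrays (log2 difference -0.67, adjusted p = 0.372, limma), PSBW overlapped between the genotypes (log2 difference -0.19, adjusted p = 0.968, limma), and neither was called. The phloem gene SWEET11 was called lower (330.5 to 504.7 against 29.9 to 63.8, log2 difference -2.76, adjusted p = 0.00782, limma). Both its sol2 arrays were under the filter level of about 80.1, so it was tested because of its wild type arrays. The quiescent centre gene AGL42 was called higher (16.2 to 26.7 against 202.6 to 302, adjusted p = 0.00486, limma). Its wild type signals lay under the highest bacterial control signal of 34.1, so it was tested because of its sol2 arrays. Each of these genes was the only measured marker of its list, and the lists were chosen with earlier results known. Of the 7 tested marker probe sets 1 was called higher and 1 lower, beside 0.945% and 0.3% of all tested probe sets. The xylem gene IRX10 gave a log2 difference of 0.08. No root cap or endodermis marker on the lists had a single-gene probe set. Fewer cells of a type and less RNA per cell cannot be told apart in these bulk samples, and the part of these markers in the GSTU values was not tested.

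The probe sets most like GSTU27 were sought among 7406 tested single-gene probe sets by the root mean square distance of log2 values, each centred on its own mean, over the 4 arrays. The nearest was AT3G07930, at a distance of 0.02, with signals of 128.8 and 141.3 in wild type against 91.6 and 85.4 in sol2. AT3G48570, AT4G35200, AT3G07000 and the sugar transporter gene SWEET1 followed, at distances from 0.03 to 0.04. These 5 had log2 differences between -0.56 and -0.52, and with 4 arrays in 2 genotypes the likeness says little beyond a similar difference.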

How the data were processed

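The authors deposited 1 linear intensity value for each probe set on each array, made with GCOS per the submitters' processing notes. Algorithm and scaling target are not given in the sources used here. On every array the mean of the middle 96% of values was between 500.05 and 500.06, so no further scaling was applied. From these, log2(signal + 18.4) was computed, 18.4 being the 20th percentile of all values. Reported folds are on this scale, which understates the change of genes with low signal. The 13648 non-control probe sets at or above the 40th percentile of the mean were tested with limma 3.58.1 in R 4.3.3 (eBayes with an intensity trend after lmFit, genotype as the only term, two-sided), with Benjamini-Hochberg adjustment over all of them. The number of arrays limits the precision.

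Names came from the platform annotation, and locus and gene order from RefSeq's TAIR10.1 gene table, which matched all 7 members. The members and lists were chosen with earlier results of these data known. Every member was named, and of each other list the called members or otherwise the 2 largest differences. For the xenobiotic and oxylipin response the remaining tested genes were named as well. No probe set was paired with SOL2, so the mutated gene was not analysed here. Normalization, pseudocount, filter, prior variance, a replicate block, the threshold and each array left out were varied. Figures were drawn with matplotlib 3.10.9.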

Additional observations from a re-analysis of the deposited data

How the results depend on the processing

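All alternatives were planned. No member was called in either direction under any alternative except the replicate block, with which GSTU27 was called (1 member lower, adjusted p = 0.00674, between 0.0814 and 0.9999 under its other 12 alternatives) and 660 probe sets were higher and 462 lower in all. The labels do not say that a replicate number marks a shared batch. Across probe sets, replicate 1 minus replicate 2 in wild type correlated at 0.44 with the same quantity in sol2, but 2 pairs do not settle a pairing, so the reported fit has no block. Of 90 member values under alternatives 6 changed sign. GSTU16 did so with quantile normalization (-0.0092), equal array medians (-0.0043) and without sol2 replicate 1 (-0.0037). GSTU20 did so without wild type replicate 2 (-0.10), and GSTU26 without wild type replicate 1 (0.13) and without sol2 replicate 2 (0.16). The 90 include values under the filters, the prior variance settings and the replicate block. These settings leave the log2 difference as it was, so no sign could change there. With an array left out, GSTU16 ran from -0.0037 to 0.061, GSTU20 from -0.10 to 0.25, GSTU26 from -0.61 to 0.16 and the median of the members from -0.27 to 0.061. Over all probe sets 129 were higher and 41 lower; these were 60 and 9 without the filter, 68 and 15 with the 60th-percentile filter, 199 and 78 at an adjusted p under 0.10, and from 107 to 876 higher and 46 to 549 lower with an array left out. The filters alter how many probe sets enter the test, and the looser threshold admits more probe sets of the same fit by definition. The cause of the other shifts was not tested. GSTU16 lay below the 60th-percentile filter.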
